A study of Mus musculus with 16 samples.

Results

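The brain regional homeobox genes Otx1, Otx2, Emx1, Emx2, Gbx1, Gbx2, En1 and En2 are 4 pairs of paralogues, and their H3K27me3 was described in mouse embryonic stem cells. A consensus peak was assigned to a gene when it overlapped the annotated gene span extended by 2 kb on either side. The 8 genes held 10 of the 102957 consensus peaks, 1 peak each except for Gbx1 with 3, and made up 8 of the 18364 gene regions with a peak. Otx1 lies on chromosome 11, where the DNA content differed between the lines, and is described apart wherever lines are compared.

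Each pair marks a territory of the early neural tube. Otx genes are needed for forebrain and midbrain, Emx genes for the dorsal telencephalon that forms cortex and hippocampus, Gbx2 for the anterior hindbrain where it borders Otx2, and En genes for the midbrain and cerebellum on both sides of that border. H3K27me3 is laid down by Polycomb repressive complex 2, which in embryonic stem cells covers the CpG-rich promoters of developmental regulators that these cells do not use, often as domains wider than the gene. The mark reports on chromatin and not on transcript level, and expression was not measured here.

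The series profiled H3K27me3 and input DNA by ChIP-seq in stem cells with and without the X-linked long non-coding RNA gene Firre, before and after doxycycline. The labels gave 4 lines: KO transgene (Firre knockout with a doxycycline-inducible Firre transgene), KO control (Firre knockout), WT transgene (wild type with the same kind of inducible transgene) and WT control (wild type). All cells grew on gelatin in medium with serum, LIF and the inhibitors PD0325901 and CHIR99021, and all were labelled as given doxycycline, with sampling at 48 h or 0 h. Each of the 8 conditions had 1 H3K27me3 library and 1 input library. The labels name no strain, clone, separate culture, transgene promoter or integration site, so a difference between lines cannot be told apart from a difference between clones.

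H3K27me3 libraries held 10380781 to 14787938 counts in peaks, and input libraries 3340654 to 6244333. Input over the Firre peak, relative to the chromosome X mean, was 10.7 in KO transgene, 11.1 in KO control, 14.9 in WT transgene and 0.694 in WT control. H3K27me3 counts over that peak at 48 h and 0 h were 47 and 172 in KO transgene, 177 and 164 in KO control, 57 and 263 in WT transgene and 0 and 1 in WT control. The KO control values go against a line with neither gene nor transgene. WT control had input at 0.694 of the chromosome X mean but H3K27me3 counts of only 0 and 1. Whether it holds the gene that its label gives it was not tested. KO control and WT control are therefore called lines labelled so below, and KO and WT are used as the labels' names. Values without the line labelled KO control are given where lines are compared. Chromosome 11 took 10.5% ± 0.662 of input counts in KO lines and 8.35% ± 0.109 in WT lines (SD, n = 4 libraries each). Of 10 pluripotency genes, 1 (Esrrb) had a peak, against 3 of 3 primed epiblast, 3 of 3 neural progenitor and 3 of 5 fibroblast markers. With 1 library per condition, p-values measured only a spread pooled over regions, which may be technical. In the time fit the common dispersion was 9.77e-05, so SEs there follow mostly read depth. The same dispersion came from the transgene by time fit and from KO against WT fits of control lines or transgene lines alone. Fits of KO against WT and of transgene against control had no line term. Both times of a line counted there as separate libraries.

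Upstream sequence from RefSeq was at hand for 5 of the 8 genes, as 8 start sites: 4 for Otx2 and 1 each for Emx1, Emx2, Gbx2 and En1; Otx1, Gbx1 and En2 had no entry. All 8 stretches of 250 bases lay inside the H3K27me3 peak of their gene. One stretch per gene is shown, ending at the base before the start site, because the stretches differ in their number of CG dinucleotides; CG is in capitals (build GRCm38.p6, which is mm10; 5′ to 3′ on the gene's strand).
Otx2, most upstream start (chr14:48667645-48667894, minus strand): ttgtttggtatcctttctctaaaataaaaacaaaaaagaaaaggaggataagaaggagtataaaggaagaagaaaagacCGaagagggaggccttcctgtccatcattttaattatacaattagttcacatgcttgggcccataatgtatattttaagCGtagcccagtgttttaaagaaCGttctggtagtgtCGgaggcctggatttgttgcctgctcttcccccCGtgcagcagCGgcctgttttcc
Emx1 (chr6:85187681-85187930, plus strand): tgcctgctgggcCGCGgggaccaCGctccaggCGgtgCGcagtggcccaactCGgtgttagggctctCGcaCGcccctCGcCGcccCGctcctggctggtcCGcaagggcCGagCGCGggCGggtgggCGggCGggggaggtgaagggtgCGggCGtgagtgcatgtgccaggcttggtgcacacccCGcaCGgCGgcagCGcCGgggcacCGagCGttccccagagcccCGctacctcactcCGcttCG
Emx2 (chr19:59458440-59458689, plus strand): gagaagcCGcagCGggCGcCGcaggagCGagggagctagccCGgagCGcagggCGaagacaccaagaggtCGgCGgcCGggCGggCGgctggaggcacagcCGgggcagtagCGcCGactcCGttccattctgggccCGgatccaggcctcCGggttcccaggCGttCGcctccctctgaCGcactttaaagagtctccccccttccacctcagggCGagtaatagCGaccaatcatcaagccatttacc
Gbx2 (chr1:89931177-89931426, minus strand): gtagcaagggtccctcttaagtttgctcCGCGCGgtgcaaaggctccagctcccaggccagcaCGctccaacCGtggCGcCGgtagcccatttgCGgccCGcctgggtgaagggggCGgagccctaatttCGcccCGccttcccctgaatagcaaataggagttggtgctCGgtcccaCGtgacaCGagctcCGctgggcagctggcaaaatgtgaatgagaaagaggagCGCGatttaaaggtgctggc
En1 (chr1:120602237-120602486, plus strand): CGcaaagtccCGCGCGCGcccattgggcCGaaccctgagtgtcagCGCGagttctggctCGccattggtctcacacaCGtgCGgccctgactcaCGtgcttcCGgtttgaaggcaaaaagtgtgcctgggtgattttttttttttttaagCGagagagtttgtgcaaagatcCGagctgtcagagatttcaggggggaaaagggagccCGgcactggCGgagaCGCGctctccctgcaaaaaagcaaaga

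The Emx1 stretch held 30 CG, Emx2 24, En1 19 and Gbx2 18, against a median of 6 over 32851 RefSeq promoters of the same length. The 4 Otx2 stretches held 6, 8, 14 and 9 CG, the fewest among the 5 genes with sequence but none below that median. Otx2 lay under a peak of 25.26 kb. The letters TAATTA, a core that many homeodomain proteins bind and that reads the same on both strands, were in 2 of the 8 stretches, both of Otx2, and in 4.84% of all promoters. TATAAA, searched on both strands, was in 1 of the 8, the most upstream Otx2 start, and in 12.37% of all promoters. These matches describe letters only.

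Of the 8 genes 7 lay whole under a peak of more than 20 kb, and Gbx1 lay in part under 3 narrower ones. The widest peak over each gene measured 79.5 kb at En2, 62.54 kb at Emx2, 54.3 kb at Emx1, 39.95 kb at En1, 26.88 kb at Gbx2, 25.26 kb at Otx2, 22.09 kb at Otx1 and 16.62 kb at Gbx1. The median over all peaks was 2356 bp, and 7 of the 10 peaks reached 20 kb, as did 3.45% of all peaks. Widths are of 1 consensus set, so they have no value per line or time.

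The 2 Otx peaks were the narrowest of the single ones. Otx1 (chromosome 11, 21994764 to 22001651, mm10) lay under a peak from 21989350 to 22011435. Otx2 (chromosome 14, 48656781 to 48667644), which also organises the anterior visceral endoderm, lay under 48656377 to 48681636, with 404 bp of peak beyond one end of the gene and 13.99 kb beyond the end that holds its start sites. The antisense gene Otx2os1 shares that peak, and Ehbp1 and Gm32517 share part of the Otx1 peak. ChIP carries no strand, so shared peaks are not assigned to one gene.

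The Emx1, Emx2 and En2 peaks reached far to the lower-coordinate side of the gene. Emx1 (chromosome 6, 85187931 to 85204463) lay under 85162649 to 85216947, a peak also shared by Sfxn5 and Gm33200. Emx2 (chromosome 19, 59458690 to 59465357) lay under 59414907 to 59477443, which began 43.78 kb before the gene and also covers its antisense gene Emx2os. En1 (chromosome 1, 120602487 to 120607991) lay under 120589177 to 120629124. En2 (chromosome 5, 28165696 to 28172190) lay under 28100270 to 28179775, which began 65426 bp before the gene.

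Gbx2 (chromosome 1, 89927962 to 89931176) lay under 89911700 to 89938578. Gbx1, its less studied paralogue (chromosome 5, 24504426 to 24526848), was the exception, with a gap in the gene body. Its main peak, 24516444 to 24533066, covered 46.4% of the gene and had counts 1.58 ± 0.138-fold over input (SD, n = 8 conditions). A peak of 3.208 kb at 24503395 had 1.11 ± 0.0917-fold, and one of 1.572 kb at 24513590 had 0.763 ± 0.225-fold. Against input, edgeR's quasi-likelihood test over all peaks called the main peak higher and the smallest lower (Benjamini-Hochberg adjusted p = 3.23e-35 and 0.00352), while the first was not called (adjusted p = 0.199). Of 102923 peaks, the same test, scaled by total counts, called 7988 higher and 37015 lower.

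**Figure D1:**
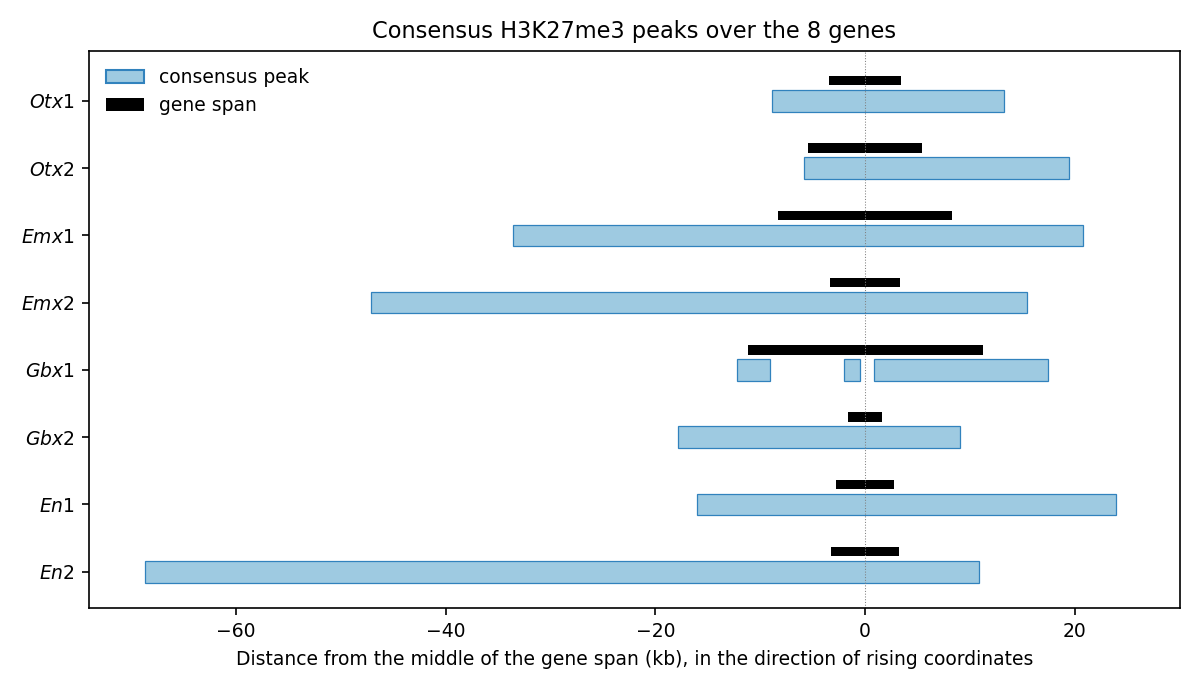
Extent of the consensus H3K27me3 peaks (blue) around the 8 gene spans (black), in kb from the middle of the gene span along rising coordinates. The peaks of En2, Emx2 and Emx1 reach far to the left of the gene, and Gbx1 has 3 separate peaks.

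All 8 genes had more H3K27me3 than input in all 8 conditions. The level was taken as the CPM in peaks of H3K27me3 over that of input, so a value of 1 is the average over consensus peaks and not the genomic background. Otx1 averaged 1.99 ± 0.177 (lowest 1.67, highest 2.21) and Otx2 1.62 ± 0.0952 (1.51 to 1.76). Emx1 averaged 1.62 ± 0.0504 (1.52 to 1.68) and Emx2 1.74 ± 0.105 (1.52 to 1.83). Gbx2 averaged 1.58 ± 0.170 (1.35 to 1.79), and Gbx1, over its 3 peaks together, 1.43 ± 0.119 (1.26 to 1.61). En1 averaged 1.88 ± 0.152 (1.71 to 2.14) and En2 1.46 ± 0.0665 (1.38 to 1.58; SD, n = 8 conditions for each). Emx1 and En2 thus varied least across conditions, and Otx1 and Gbx2 most.

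Across the 18364 regions the median level was 0.976 ± 0.00613 (SD, n = 8), and the genes lay between percentile 93.2 (Gbx1) and 99.2 (Otx1) of all regions. edgeR's quasi-likelihood test of H3K27me3 against input, scaled by total counts, called all 8 higher after Benjamini-Hochberg adjustment, with log2 differences from 0.51 ± 0.04 for Gbx1 to 0.99 ± 0.03 for Otx1 (SE) and adjusted p of at most 7.42e-17. The same test called 28.7% of all regions higher. The peak caller's own fold, the authors' value per peak, was 3.90 at Otx1, 3.06 at En1 and 2.43 at En2, and 2.91, 1.96 and 1.46 at the 3 Gbx1 peaks, against a median of 1.53 over all peaks. The smallest Gbx1 peak was thus below that median.

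In descending level the order was Otx1, En1, Emx2, Otx2, Emx1, Gbx2, En2 and Gbx1. The steps between neighbours were all smaller than the SD of the difference over the 8 conditions, the largest being 0.139 ± 0.141 between En1 and Emx2. Within pairs the contrast was clearer for En than for the rest. En1 was above En2 in 8 of 8 conditions, at 1.30 ± 0.126-fold, and Otx1 above Otx2 in 7 of 8, at 1.23 ± 0.126-fold. Emx2 over Emx1 was 1.08 ± 0.0792-fold and Gbx2 over Gbx1 1.11 ± 0.106-fold, each above 1 in 7 of 8 conditions. The exceptions all lay in the line labelled WT control, at 48 h for Otx and Emx and at 0 h for Gbx.

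Without the line labelled KO control, the mean over the other 6 conditions ran from 1.39 ± 0.103 at Gbx1 to 1.94 ± 0.172 at Otx1 (SD, n = 6), and every value stayed above 1. The nearest peaks on either side had lower mean levels than the gene, except at En2, where a peak of 0.482 kb on the lower-coordinate side had 1.56 ± 1.62-fold (SD, n = 8). The nearest peaks beside Otx1, 1.785 and 2.618 kb away, had 0.833 ± 0.113-fold and 0.660 ± 0.267-fold over input (SD, n = 8), and those beside Otx2 had 0.823 ± 0.335 and 0.819 ± 0.156-fold. Beyond the Gbx2 peak, 2.352 kb away, a further domain of 20.67 kb had 1.33 ± 0.0677-fold, and before the Emx2 peak, 3.53 kb away, one of 37.26 kb had 1.15 ± 0.0386-fold. Median levels of the peaks within 100 kb ran from 0.790 at Otx1 to 1.13 at Gbx1.

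**Figure D2:**
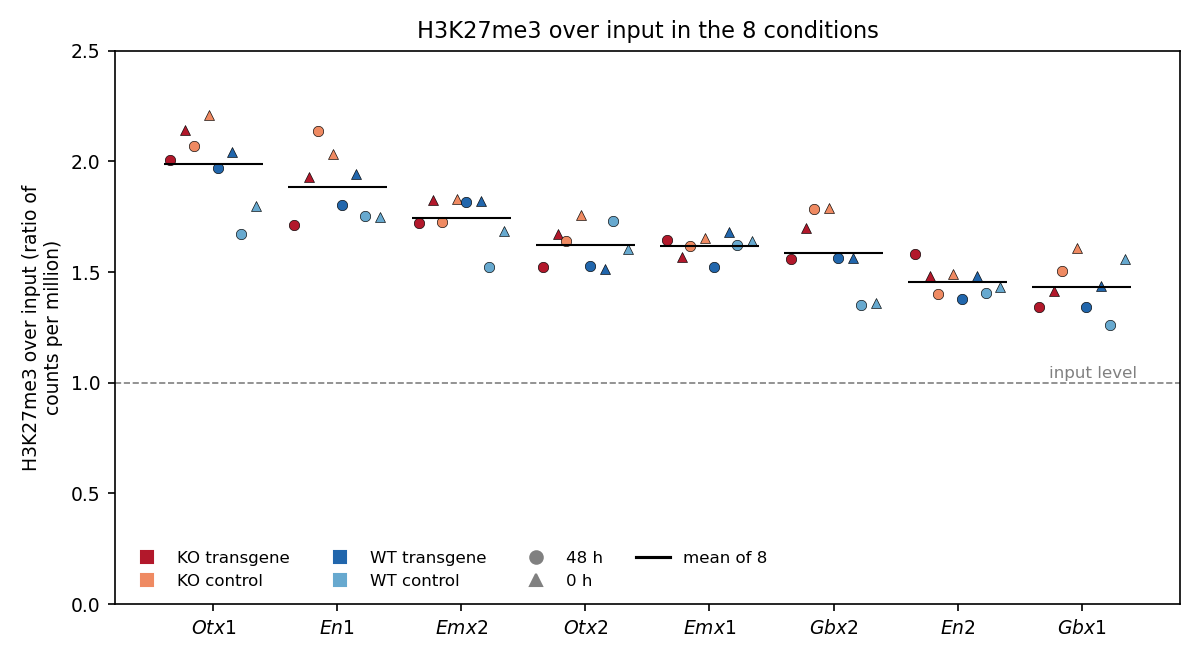
H3K27me3 over input per gene in the 8 conditions, as a ratio of CPM in peaks, with genes in descending mean level (bar: mean of 8). Colours are the lines, circles 48 h and triangles 0 h; every point lies above 1, from 1.26 (Gbx1, the line labelled WT control at 48 h) to 2.21 (Otx1, the line labelled KO control at 0 h).

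After 48 h of doxycycline, H3K27me3 fell slightly at Otx1, Otx2 and Emx2 relative to 0 h over the 4 lines. In normalised counts (CPM in peaks, with TMM scaling among the libraries of an assay), Otx1 had 110.5, 144, 91.6 and 83.1 at 48 h in KO transgene, the line labelled KO control, WT transgene and the line labelled WT control, against 132, 160.4, 101 and 93.3 at 0 h. Every line was lower at 48 h. The ratios of 48 h over 0 h were 0.834, 0.900, 0.906 and 0.891, each with a 95% interval for counting error below 1.

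Otx2 had 83.4, 90.2, 86.6 and 77.8 at 48 h in the lines in that order, against 94.9, 96.2, 90.8 and 87.6 at 0 h. All 4 lines were lower, with the interval below 1 in KO transgene (0.879, 0.811 to 0.952) and the line labelled WT control (0.888, 0.817 to 0.965). Emx2 had 199.7, 201, 202 and 187 at 48 h and 207, 219, 207 and 202 at 0 h, again lower in all 4 lines. Its interval lay below 1 in the line labelled WT control (0.925, 0.876 to 0.976) and, at 0.916 (0.864 to 0.970), in the line labelled KO control.

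With the line as a block, edgeR's quasi-likelihood test over all regions, Benjamini-Hochberg adjusted, called these 3 of the 8 genes lower and 0 higher; without the block it called none of the 8. The log2 difference, 48 h minus 0 h, was -0.18 ± 0.03 at Otx1 (SE, adjusted p = 5.74e-08), -0.13 ± 0.03 at Otx2 (adjusted p = 0.00393) and -0.08 ± 0.02 at Emx2 (adjusted p = 0.0196). The same test called 2.13% of all regions lower and 0.359% higher. Among the 982 regions at least 1.5-fold over input it called 17% lower and 0% higher, with a median of -0.06.

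The other 5 genes were not called. Their differences were -0.08 ± 0.03 at Gbx2, -0.07 ± 0.03 at En1, -0.06 ± 0.02 at En2, -0.01 ± 0.02 at Emx1 and -0.01 ± 0.04 at Gbx1 (edgeR's quasi-likelihood test, Benjamini-Hochberg adjusted p from 0.131 to 0.972). En2 stood at 220.3 ± 4.57 normalised counts at 48 h and 229 ± 4.79 at 0 h (SD, n = 4 each), and its times did not overlap. Those of Emx2 were barely apart, with a highest value of 201.8 at 48 h and a lowest of 201.9 at 0 h. In input the times of Gbx1 did not overlap either. No share over all regions is given for such separation, here or between lines. The median H3K27me3 difference over the 8 genes was -0.07, against -0.01 over all regions.

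In the input libraries the same test called 0 of the 8 genes and 0 of 18234 regions over time; 972 regions had an unadjusted p under 0.05, among them Gbx1 (0.14 ± 0.06). Input differences, 48 h minus 0 h, were -0.09 ± 0.06 at Otx1 and -0.10 ± 0.06 at Otx2, in the same direction as H3K27me3, and 0.01 ± 0.04 at Emx2. With the matched input as an offset none of the 8 genes was called, Otx1 being at -0.09 (adjusted p = 0.736). An offset following enrichment, added after the data were seen, kept the call at Otx1 (-0.10, adjusted p = 0.0316) and ended it at Otx2 (-0.08, adjusted p = 0.209) and Emx2 (-0.02, adjusted p = 0.782). DESeq2 gave no adjusted p for 6 of the 8 genes, Otx1 among them (-0.17, unadjusted p = 0.000213), and called neither of the other two, with Emx2 at -0.07 (adjusted p = 0.419).

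Leaving out one line's time pair at a time, Otx1 stayed called throughout (-0.20 to -0.15). Otx2 was not called without the line labelled WT control or without KO transgene, and Emx2 was not called without the line labelled WT control or without the line labelled KO control. Without that last line Otx2 was at -0.14 (adjusted p = 0.0102) and Emx2 at -0.07 (adjusted p = 0.201; edgeR's quasi-likelihood test, Benjamini-Hochberg).

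**Figure D3:**
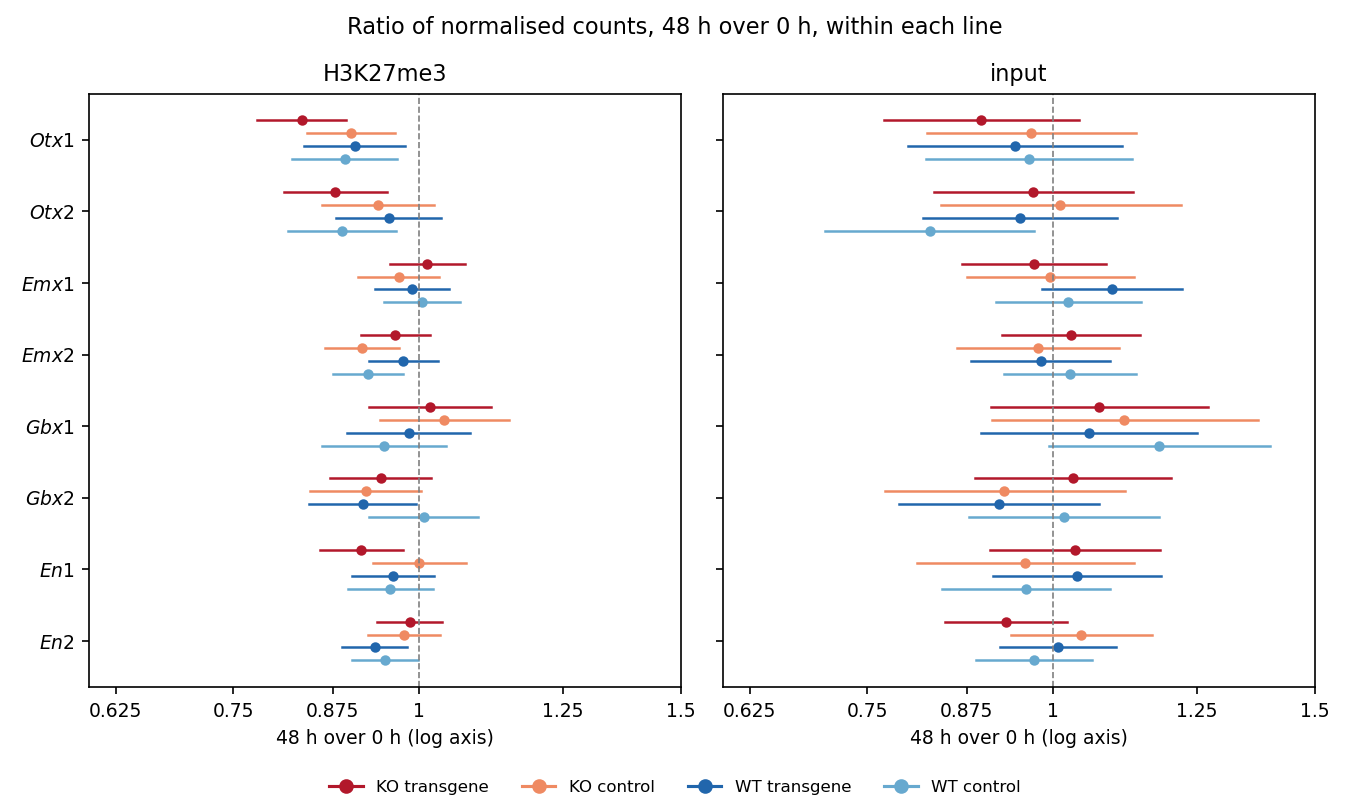
Ratio of normalised counts at 48 h over 0 h within each line, in H3K27me3 (left) and input (right), on a log axis, with 95% intervals for counting error. At Otx1 all 4 H3K27me3 intervals lie below 1. Its 4 input ratios are below 1 too, with wider intervals that all include 1.

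Whether the change over 48 h depended on the Firre transgene was asked by the transgene by time term, and none of the 8 genes was called. The change in transgene lines minus that in control lines ran from -0.06 ± 0.05 at En1 to 0.08 ± 0.04 at Emx2 (edgeR's quasi-likelihood test, Benjamini-Hochberg adjusted p of at least 0.925), and no gene had an unadjusted p under 0.05. The same test called 0.0436% of regions lower and 0.00545% higher. For Otx1, the gene with the largest fall over time, the term was -0.05 ± 0.05. With either library of the line labelled KO control left out, 0 of the 8 genes were called. With SEs of 0.04 to 0.07, small effects in either direction were not detectable at this depth.

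None of the 8 genes was called between transgene lines and control lines, both times together. Otx1 had the largest difference at -0.12 ± 0.06, and En1 followed at 0.07 ± 0.04 (edgeR's quasi-likelihood test, Benjamini-Hochberg adjusted p = 0.441 and 0.410). The test called 0.158% of regions lower and 0.0272% higher. The Otx1 estimate averages opposite directions: transgene over control was 0.766 at 48 h and 0.826 at 0 h in KO lines, but 1.10 and 1.08 in WT lines, and none of these 4 counting intervals included 1. The WT pair alone, which does not use the line labelled KO control, was thus above 1. Input at Otx1 differed by -0.19 ± 0.06 (adjusted p = 0.180), the direction of the averaged H3K27me3 estimate. Transgene over control in input was 0.796 at 48 h and 0.860 at 0 h in KO lines. In WT lines it was 0.921 and 0.943, below 1 where H3K27me3 was above 1, and both intervals included 1. The chromosome 11 share of input was 9.97% in KO transgene but 11.1% in the line labelled KO control. With the matched input as an offset the averaged Otx1 estimate took the opposite sign, as given in the section on processing. The part of DNA content in the Otx1 difference was not otherwise tested.

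Among the 7 genes off chromosome 11, Gbx2 was higher in KO than in WT lines. Gbx2 had 90.8, 96.4, 92.3 and 100.2 normalised counts in KO transgene at 48 h and 0 h and, in the same order, the line labelled KO control. The WT values were 82.5 and 90.0 in WT transgene and 80.7 and 80.1 in the line labelled WT control. KO and WT were thus apart only narrowly, at 90.8 against 90.0, and no share of regions so separated is given. The log2 difference, KO minus WT, was 0.19 ± 0.04 (edgeR's quasi-likelihood test, Benjamini-Hochberg adjusted p = 0.00154). Input at Gbx2 differed by -0.05 ± 0.06 (adjusted p = 0.870), in the other direction.

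The other 6 genes off chromosome 11 ranged from -0.0045 ± 0.04 at En1 to 0.09 ± 0.05 at Gbx1 and were not called (adjusted p of at least 0.200). With Otx1, 2 of 8 genes were called higher and 0 lower, where the same test called 10.2% of regions higher and 1.85% lower. Off chromosome 11 it called 4.32% of regions higher. Without the line labelled KO control, in the transgene lines alone, Gbx2 was at 0.12 and no longer called (adjusted p = 0.0626), and in the control lines alone it was at 0.25 (adjusted p = 1.21e-07). Each of these fits compares single lines, so its p-values follow mostly read depth and do not measure a spread between lines.

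The size of the KO against WT difference varied with the line pair. In the control lines alone, which rest on the line labelled KO control, 6 of the 8 genes were called higher, all but En1 and En2. That fit called 2813 of 18361 regions higher. In the transgene lines alone only Otx1 was called, beside 1275 of 18364 regions called higher. A term for the difference between the line pairs, added after the data were seen, was called at Emx1 (0.20 ± 0.05, adjusted p = 0.00103) and at Otx1 (0.46 ± 0.06, adjusted p = 3.88e-13; edgeR's quasi-likelihood test, Benjamini-Hochberg). It called 5.69% of regions higher and 0.425% lower. The term also compares single lines, so its p-values do not measure a spread between lines. At Emx1 the KO over WT ratio was 1.08 at 48 h and 1.12 at 0 h in control lines, against 0.968 and 0.945 in transgene lines, so the additive estimate of 0.03 ± 0.04 averages values on both sides of 0.

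Otx1 on chromosome 11 rose in the KO lines in H3K27me3 and in input alike. Its H3K27me3 was 110.5, 132, 144 and 160.4 normalised counts in KO transgene at 48 h and 0 h and, in the same order, the line labelled KO control, and 91.6, 101, 83.1 and 93.3 in WT transgene and the line labelled WT control in the same order of times. Input was 55.1, 61.6, 69.3 and 71.6 in the KO lines, against 46.5, 49.4, 50.5 and 52.4 in the WT lines. Neither measure overlapped between KO and WT, with no share of regions so separated given, and the line labelled KO control was highest in both. The log2 difference, KO minus WT, was 0.56 ± 0.06 in H3K27me3 (adjusted p = 1.55e-07) and 0.37 ± 0.06 in input (adjusted p = 2.93e-07; edgeR's quasi-likelihood test, Benjamini-Hochberg). In the transgene lines alone, without the line labelled KO control, the H3K27me3 difference was 0.33 ± 0.04 (adjusted p = 2.39e-14), and in the control lines alone 0.79 ± 0.04. These values again come from fits that compare single lines. In input the test called 5.51% of regions higher and 0.203% lower.

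Most of chromosome 11 was higher in the KO lines as well. The H3K27me3 test called 86.3% of its regions higher in KO, and the median of its 1317 regions was 0.37 in H3K27me3 and 0.36 in input. Otx1 input stood at that median (0.37), while its H3K27me3 lay above 92.56% of the chromosome's regions. With chromosome 11 counts alone as the total, Otx1 H3K27me3 had a CPM of 1323 ± 131 in KO lines and 1152 ± 95.3 in WT lines (SD, n = 4 libraries each). The ratio was 1.15, with overlapping ranges. The KO transgene line alone had 1147 at 48 h and 1373 at 0 h, against 1146 and 1268 in WT transgene. In input the values were 606 ± 37.8 and 598 ± 23.4, a ratio of 1.01.

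A direct test of KO against WT in H3K27me3 over input, in all 16 libraries, called none of the 8 genes. Gbx2 was at 0.22 ± 0.07 (adjusted p = 0.0818), Otx1 at 0.18 ± 0.07 (adjusted p = 0.194) and En1 at 0.10 ± 0.06 (adjusted p = 0.525; edgeR's quasi-likelihood test, Benjamini-Hochberg). All 8 estimates were above 0, with a median of 0.07. The median was 0.01 over all regions and 0.03 over the 982 regions at least 1.5-fold over input. The test called 0.79% of regions higher and 0.251% lower. With 1 H3K27me3 library left out with its input, Gbx2 was called without KO transgene at 48 h (0.29, adjusted p = 0.0229) or WT transgene at 48 h (0.28, adjusted p = 0.0366), and not in the other 6 cases. Without the line labelled KO control at 48 h or 0 h it was at 0.16 (adjusted p = 0.454) and 0.19 (adjusted p = 0.284), and without the line labelled WT control at 48 h or 0 h at 0.19 (adjusted p = 0.344) and 0.18 (adjusted p = 0.323).

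**Figure D4:**
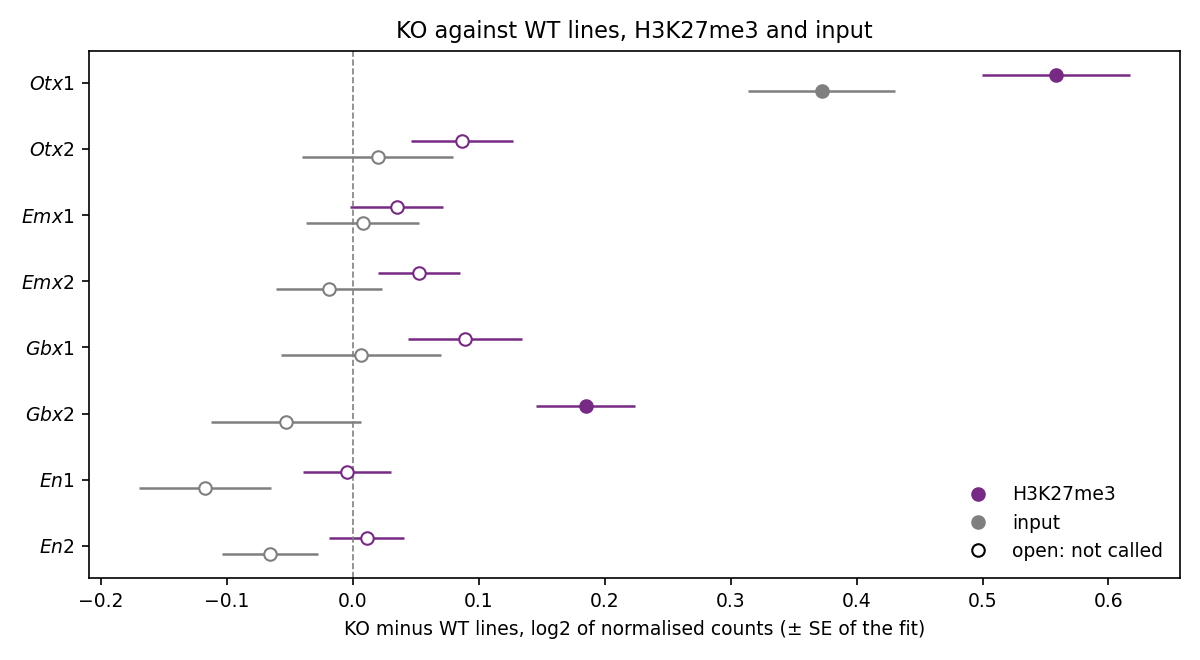
KO minus WT lines, as the log2 difference of normalised counts ± SE of the fit, in H3K27me3 and in input for each gene, with filled points called and open points not called. Otx1 lies at 0.56 in H3K27me3 and 0.37 in input, and Gbx2 at 0.19 and -0.05; the other 6 genes are not called in either.

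Other genes of brain patterning were described from a list of 28: 11 forebrain regulators, 9 genes of the midbrain-hindbrain boundary and 8 hindbrain genes. Of these 26 had a peak within 2 kb, in 25 distinct regions, and Hesx1, a forebrain repressor, and Egr2, which marks hindbrain segments, had none. Their levels had a median of 1.69-fold over input, beside 1.64 ± 0.0722 for the 8 homeobox genes. High levels were measured at Hoxb1 (2.59 ± 0.104) and at Fgf8, the signal of the midbrain-hindbrain organiser (2.22 ± 0.103). The lowest were Pax8 (1.09 ± 0.0596), Fgf17 (1.10 ± 0.341), Lmx1a (1.19 ± 0.0488) and Pax5 (1.24 ± 0.0516; SD, n = 8 for each), 3 of them spread over 8 to 14 peaks.

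Over time, 14 of the 25 regions were called lower and 0 higher, with a median of -0.08 and 23 below 0 (edgeR's quasi-likelihood test, Benjamini-Hochberg, beside 2.13% of all regions and 17% of those at least 1.5-fold over input). By group these were 8 of 10 forebrain, 1 of 9 boundary and 5 of 6 hindbrain regions. Among those called were Sp8 (-0.15 ± 0.04) and Pax6, the eye and cortex regulator (-0.12 ± 0.02), beside -0.18 at Otx1 and -0.13 at Otx2.

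In KO against WT lines 4 of the 25 regions of the list were called higher and 0 lower. They were Hoxb1 on chromosome 11 at 0.47, and Sp8 at 0.20, Meis2 at 0.19 and Dmbx1 at 0.16 on other chromosomes. The same test called 10.2% of all regions higher and 1.85% lower, with 86.3% higher on chromosome 11 and 4.32% off it. No region of the list was called for the transgene by time term or for transgene against control. Of 3 neural progenitor markers, Sox1 (-0.13 ± 0.02) and Zic1 (-0.15 ± 0.02) were called lower over time and Nes was not called (0.02 ± 0.03). Gene regions outside the 8 were ranked by nearness to the mean profile of H3K27me3 over input of the 7 genes off chromosome 11. Among 11365 regions with at least 200 mean counts, Ihh, Cfap65, Gm28876, Gm19835 and D930007P13Rik were nearest. Their root mean square log2 difference was 0.0361 to 0.0442 over the 8 conditions. The 7 genes themselves lay farther from their mean, at 0.0639 to 0.231. Gm19835 lies on chromosome 11, with KO minus WT at 0.46 in H3K27me3.

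**Figure D5:**
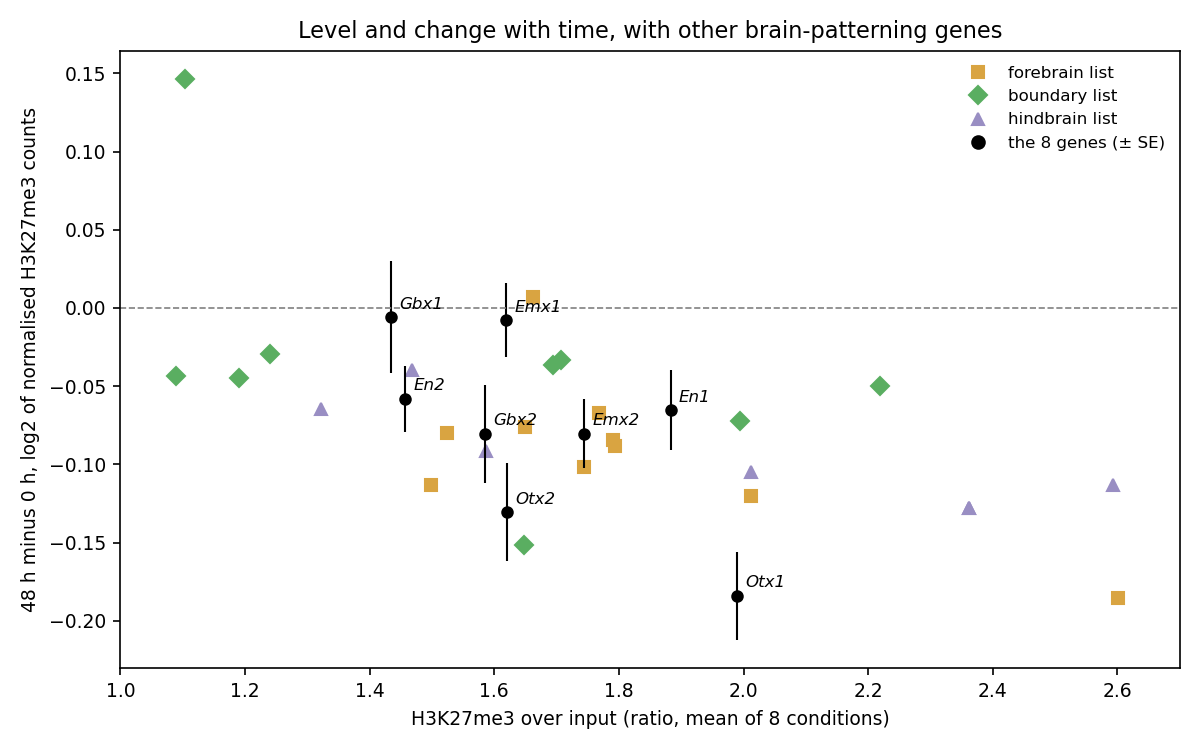
Mean H3K27me3 over input (horizontal axis, ratio) against the log2 difference of normalised counts at 48 h minus 0 h (vertical axis) for the 8 genes (black, ± SE) and the listed forebrain, boundary and hindbrain regions. Most points lie below 0, Otx1 at -0.18 and Otx2 at -0.13 among the lowest.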

How the data were processed

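H3K27me3 ChIP and input DNA were sequenced in 8 conditions (4 lines at 48 h and 0 h), giving 16 libraries that were grouped by label (genotype, antibody, time). The deposited count table gives raw counts of reads per consensus peak and library. The authors' deposited peak list gives, per peak, a score, a fold over background and −log10 p and q values of the peak caller, all values of a peak. Per the submitters' processing notes, mm10, featureCounts, MACS2 2.2.71, BWA 0.7.17-r1188 and DESeq2 1.26.0 were used, in roles that are not given. The libraries behind the peak call are likewise not given in the sources at hand. A consensus set called mostly on some libraries would favour regions strong in those, and counts over a wide peak cannot show a change narrower than it.

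Gene spans came from a RefSeq table of GRCm38.p6, and regions are the sums of peaks within 2 kb of a gene. Library totals are counts within peaks. Tests used edgeR 4.0.16 in R 4.3.3 (quasi-likelihood F test, TMM factors, filterByExpr, Benjamini-Hochberg over all regions or peaks at 0.05), with line as block for time, line and time for the transgene by time term, and additive terms for background, transgene and time. H3K27me3 over input used the condition as block. Limits of ratios are 95% exact binomial intervals and cover counting error only. The fits were also run on simulated counts with the same dispersion for every region and no spread between lines. That run cannot check p-values for differences between lines. Libraries of the same line differed little between times (chi-square over degrees of freedom 1.00 to 1.01 in input, 1.04 to 1.12 in H3K27me3), but are separate conditions and were not merged.

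The 8 genes, the patterning list and the marker lists were chosen with earlier results of these data known. All 8 genes and their peaks are described; of the list, the 4 largest called changes per comparison and the 4 highest and lowest over input are named, except genes whose own values are not reported here. Alternatives were other library sizes, no low-count filter, other flanks, chromosome 11 left out, DESeq2 1.42.0, limma-voom (limma 3.58.1), input as offset, no line block, line pairs alone and each library left out. An offset following enrichment (lowess, span 0.3) and the interaction terms of background were added after the data were seen. Those genes stay in the list's totals.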

Additional observations from a re-analysis of the deposited data

Results flagged for a closer look

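The KO minus WT difference in H3K27me3 was called larger in the control lines than in the transgene lines at 2 of the 8 genes. The term behind these calls compares single lines. At Otx1 it was larger by 0.46 ± 0.06 on the log2 scale (edgeR's quasi-likelihood test, Benjamini-Hochberg adjusted p = 3.88e-13), against medians of 0.17 over chromosome 11 regions and 0.04 over all regions. KO over WT input at Otx1 was 1.37 at both times in control lines, and 1.19 at 48 h and 1.25 at 0 h in transgene lines. At Emx1 it was larger by 0.20 ± 0.05 (adjusted p = 0.00103), with KO over WT input of 1.06 at 48 h and 1.09 at 0 h in control lines and 0.899 and 1.01 in transgene lines. The test called 5.69% of all regions and 28.2% of chromosome 11 regions higher. Both values rest on the line labelled KO control, and the part of DNA content in them was not tested. Their p-values do not measure a spread between lines.

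Gbx1 H3K27me3 counts at 48 h over 0 h lay above 1 in both KO lines and below 1 in both WT lines. The ratio was 1.04 in the line labelled KO control and 1.02 in KO transgene, a mean of 1.03, against 0.984 in WT transgene and 0.947 in the line labelled WT control. Each of these 4 intervals for counting error included 1, and the background by time term was 0.09 ± 0.07 (edgeR's quasi-likelihood test, Benjamini-Hochberg adjusted p = 0.992). Relative to input the direction was the same in all 4 lines: H3K27me3 over input at Gbx1 was 1.34 at 48 h and 1.41 at 0 h in KO transgene, and 1.34 and 1.44 in WT transgene. Of the lines labelled as controls, the KO one had 1.51 at 48 h and 1.61 at 0 h, and the WT one 1.26 and 1.56. Gbx1 input at 48 h over 0 h was 1.06 to 1.18, and each interval included 1.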

How the results depend on the processing

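Replicate numbers pair no samples, since the number is 1 in every group; the times of a line were paired by the line block of the time fit. Over time, DESeq2 called 0 of the 2 genes it gave an adjusted p (33 regions in all), input as offset 0 of 8 (3 regions), no line block 0 of 8 (0 regions) and the offset following enrichment 1 of 8, Otx1 (193 regions), where 458 regions and 3 genes were called otherwise; under that offset Emx1 stood at 0.043, Gbx1 at 0.029 and En1 at 0.0047. Leaving out each library in turn gave 189 to 287 regions and 1 to 3 genes, Emx1 at -0.017 to 0.0033 and Gbx1 at -0.025 to 0.018. Of the genes' peaks, 2 (Otx1 and Otx2) were called over time, and 1 with total counts as library sizes. For the transgene by time term DESeq2 called 2 regions, and leaving out libraries gave 4 to 11, against 9.

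KO against WT gave 2212 regions and 2 genes. With chromosome 11 left out it gave 1045 regions and 1 gene, Gbx2 (En1 at 0.011), with DESeq2 1310 regions (En2 at -0.0087), with input as offset 275 regions and 1 gene, Gbx2 (En1 at 0.13), in control lines 3372 regions and 6 genes (En1 at 0.059), and in transgene lines 1 gene. There Emx1 was at -0.063, Emx2 at -0.0055, Gbx1 at -0.013 and En2 at -0.020. Total counts put En2 at -0.020, and the enrichment offset put Emx1 at -0.018, Emx2 at -0.0057 and En2 at -0.032. Leaving out libraries gave En1 at -0.036 to 0.028 and En2 at -0.0030 to 0.030. Transgene against control gave 240 regions with total counts, 16 without chromosome 11, 3 with input as offset (Otx1 0.078, En1 -0.047), 423 with the enrichment offset, with 1 gene called, Otx1 at -0.16, and 0 to 115 with libraries left out, against 34. Over input, DESeq2 called 9 regions (Emx1 at -0.0015), and leaving out libraries gave 81 to 208 regions, 0 to 1 genes and Emx1 at -0.021 to 0.041, against 191 and 0. The cause of these shifts was not tested. The Gbx1 level was 1.58 for its highest peak alone. All 8 genes stayed called over input under every alternative run, with other flanks and with TMM factors.

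Limits are the single library per condition, lines that cannot be told apart from clones, input that is less deep than H3K27me3, and wide peaks counted whole.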
